A study of Mus musculus with 4 samples.

Results

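The 42 genes described here are expressed while cells copy their DNA and divide. They were taken from a list by symbol, and all 42 were found among the 31053 genes of the deposited matrices. The list was split into 16 S members, which act while DNA is copied, and 26 G2M members, which act from the end of copying to the division of the cell. Their transcripts were counted in stromal vascular cells, the non-adipocyte cells released by digestion, of the subcutaneous fat of female mice. The 4 groups were Cth+/+ mice on control diet, Cth+/+ mice on cystine-free diet, Cth-/- mice on control diet and Cth-/- mice on cystine-free diet, each after 4 days. The product of Cth, cystathionine gamma-lyase, makes cysteine from cystathionine, so the design sets a lack of dietary cystine beside a lack of this enzyme. The study's protocol calls the diet cystine free and its sample labels call it cysteine free. Lymph nodes had been removed and depots were pooled, the number of animals is not given in the labels, and each group is 1 library. Cells of 1 library are not replicates, so no difference was tested, and diet or genotype and library cannot be told apart. Every interval is a 95% interval of counting error only.

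Copying starts where the MCM helicase has been loaded on DNA, and the sliding clamp Pcna then holds the polymerases at the fork while enzymes such as ribonucleotide reductase supply nucleotides. Entry into mitosis needs the kinase Cdk1 with its cyclins, and exit needs the anaphase ubiquitin ligase, which destroys them. Most of these genes are silent in resting cells and are switched on by E2F factors before S phase and by the MuvB complex before mitosis. Adult fat holds mostly resting stromal cells, with some dividing progenitors, vessel cells and immune cells.

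The promoters of both sets are shown because the sums of S and G2M members differed from each other in the progenitor gate below, though not in every gate. RefSeq promoter windows of 250 bases before a transcript start (build GRCm38.p6) were found for 36 of the 42 members, and Aurkb, Ccna2, Gins2, Mcm4, Stmn1 and Tpx2 had none. The last 160 bases before the start of a mitotic pair and a replicative pair are printed on the strand of the gene, all 4 genes lying on the minus strand. Capitals mark E2F sites (TTGGCGC with its variants TTCCCGC or also TTCGCGC and likewise TTGCCGC), CHR elements, which MuvB binds (TTTGAA or TTCGAA), and CCAAT boxes, each on either strand, and where matches overlap every matched letter is in capitals. Top2a lies at chr11:99024190-99024349, Mki67 at chr7:135716380-135716539, Mcm6 at chr1:128359706-128359865, and 1 of the windows of Mcm7 at chr5:138171267-138171426.
Top2a: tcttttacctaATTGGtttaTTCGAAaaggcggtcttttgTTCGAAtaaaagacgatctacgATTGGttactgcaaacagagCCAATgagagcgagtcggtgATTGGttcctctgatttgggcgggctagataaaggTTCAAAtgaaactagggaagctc
Mki67: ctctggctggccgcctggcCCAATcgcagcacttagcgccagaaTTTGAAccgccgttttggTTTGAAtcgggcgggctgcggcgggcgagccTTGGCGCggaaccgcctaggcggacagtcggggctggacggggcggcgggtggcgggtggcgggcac
Mcm6: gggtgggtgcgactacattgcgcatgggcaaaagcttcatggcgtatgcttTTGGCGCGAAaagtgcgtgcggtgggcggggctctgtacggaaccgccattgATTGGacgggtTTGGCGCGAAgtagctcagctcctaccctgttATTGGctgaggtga
Mcm7: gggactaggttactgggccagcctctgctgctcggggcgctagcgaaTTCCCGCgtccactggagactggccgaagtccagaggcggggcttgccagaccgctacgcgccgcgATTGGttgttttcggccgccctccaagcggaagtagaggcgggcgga
An E2F site stood in 6 of 14 S members with a window (42.9%), in 3 of 22 G2M members (13.6%) and in 9.01% of the 26994 genes in the table. A CHR element stood in 2 of 14 S members, in 11 of 22 G2M members and in 19.5% of all genes. Mcm7 was 1 of these S members, since its other window, not printed, held a CHR element, an E2F site and 2 CCAAT boxes. A CCAAT box stood in 9 of 14 S members, in 20 of 22 G2M members and in 37.5% of all genes. A match is a description of these letters and not a binding site.

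Kept barcodes numbered 6325 in the Cth+/+ library on control diet and 6284 in the one without cystine, and 5673 and 4090 in the Cth-/- pair, with 13937090 to 28716767 UMIs per library and median depths of 2678.5 to 3753 UMIs. Any pair of libraries shared 34 to 53 kept barcode sequences. Cth itself gave 8 and 9 UMIs in the Cth+/+ libraries and 0 in both Cth-/- libraries. Barcodes were sorted by gates on a few genes: a progenitor gate on Dcn, an endothelial gate on Cdh5, Pecam1 and Cldn5, a phagocyte gate on Csf1r, Cd68 and Lyz2, a T gate on Cd3 chains, a mural gate on Rgs5 and Notch3 and an epithelial gate on Krt8 and Krt18. In each gate all 10 markers of its own cell type were at 10 CPM or more in every library. The mural gate does not isolate mural cells, since 311, 425, 103 and 99 of its 412, 513, 147 and 117 barcodes (both Cth+/+ libraries first, control before cystine-free, the order used throughout) also passed the endothelial gate. CPM stands for UMIs per 1000000 UMIs of the gate, and a ratio is the log2 ratio of cystine-free over control diet in 1 genotype.

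Over whole libraries, the G2M members were lower without dietary cystine in the Cth-/- pair and higher without it in the Cth+/+ pair. Their summed level was 438 CPM in Cth+/+ control, 619 CPM in Cth+/+ cystine-free, 532 CPM in Cth-/- control and 343 CPM in Cth-/- cystine-free. The ratios of these sums were 0.50 (interval 0.46 to 0.54) in Cth+/+ and -0.63 (-0.68 to -0.59) in Cth-/-. The S members differed less, at 272, 303, 259 and 243 CPM in the same order, with ratios of 0.16 (0.11 to 0.20) and -0.09 (-0.15 to -0.03). A whole library mixes cell types whose shares differ between libraries, so the gates are described one by one.

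**Figure D1:**
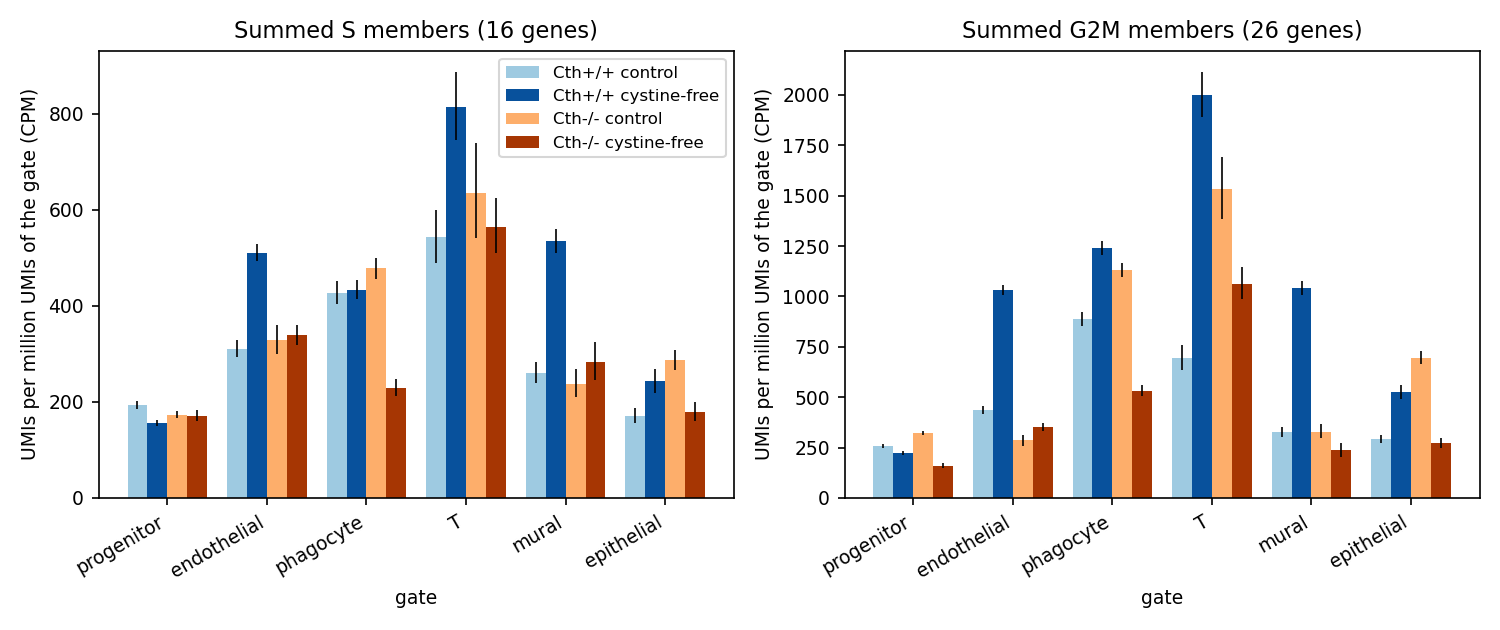
Summed level of the 16 S members (left) and the 26 G2M members (right) in CPM by gate; bars are the 4 libraries and lines are exact 95% Poisson intervals of the count. In the progenitor gate the S bars lie between 156 and 194 CPM while the G2M bar of Cth-/- cystine-free, 161 CPM, is the lowest; in the endothelial gate Cth+/+ cystine-free stands above the other 3 libraries in both panels.

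Progenitors, the fibroblast-like stromal cells from which fat cells arise, carried far fewer mitotic transcripts in the Cth-/- cystine-free than in the Cth-/- control library. The S members as a sum stayed near the level of that control library, though 11 of the 16 were lower. The gate held 2954, 3023, 3222 and 1573 barcodes. Its G2M sum was 258 CPM in Cth+/+ control, 223 CPM in Cth+/+ cystine-free, 321 CPM in Cth-/- control and 161 CPM in Cth-/- cystine-free. The S sum was 194, 156, 174 and 171 CPM in the same order. In Cth-/- the ratio was -0.998 (-1.10 to -0.89) for the G2M sum and -0.02 (-0.13 to 0.08) for the S sum. In Cth+/+ the ratios were -0.21 (-0.28 to -0.14) and -0.31 (-0.40 to -0.23), and the G2M one took the other sign, 0.041, when each barcode's share was averaged instead of pooling UMIs.

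Stmn1, Hmgb2, Cks1b and Cks2 are also expressed by resting cells, and together they made up most of the G2M sum. The other 22 G2M members summed to 75.3 CPM in Cth+/+ control, 53.7 CPM in Cth+/+ cystine-free, 125 CPM in Cth-/- control and 19.6 CPM in Cth-/- cystine-free. Their ratio in Cth-/- was -2.67 (-2.97 to -2.39), a 6.38-fold difference, and in Cth+/+ it was -0.49 (-0.63 to -0.35). The Cth-/- control library was the highest of the 4 and the Cth-/- cystine-free library the lowest. The S sum above was not reduced in this way and kept Dut and Pcna. Without them its ratio in Cth-/- was further below 0.

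Among the cyclins and their kinase, Cdk1, which drives entry into mitosis, was at 2.58 CPM in Cth+/+ control, 2.59 CPM in Cth+/+ cystine-free, 5.48 CPM in Cth-/- control and 0.565 CPM in Cth-/- cystine-free. The last value is 3 UMIs, and the ratio in Cth-/- was -2.05 with a counting interval of -5.58 to -1.68; for single genes 1 CPM was added to each level before the log2, while the interval comes from the counts without it. Cks2, a small subunit that binds cyclin-dependent kinases, was at 19.3, 15.6, 29.0 and 8.67 CPM, a ratio of -1.63 (-2.21 to -1.30) in Cth-/-. Both were lowest in Cth-/- cystine-free and highest in Cth-/- control. Ccna2, Ccnb1 and Ccnb2, the cyclins of S phase and mitosis, had 65, 50 and 87 UMIs in Cth-/- control and 3, 3 and 4 UMIs in Cth-/- cystine-free.

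Top2a, the topoisomerase that untangles copied chromosomes and whose promoter is printed above, was at 9.08 CPM in Cth+/+ control, 4.72 CPM in Cth+/+ cystine-free, 11.7 CPM in Cth-/- control and 0.754 CPM in Cth-/- cystine-free. Its ratio of -2.86 (-5.85 to -2.58) in Cth-/- was the lowest of all 42 members in this gate with 1 CPM added. That rank depends on the addition, since members of few UMIs such as Tk1 and Aurkb fell at least as far in raw counts. Cenpa, the histone of centromeres, was at 11.4, 8.31, 17.5 and 4.90 CPM, and Mki67, the proliferation antigen that coats mitotic chromosomes, at 3.21, 2.26, 6.58 and 0.754 CPM. Hmgb2, a chromatin protein, did not follow them: it stood at 59.6, 48.6, 59.2 and 64.4 CPM, a ratio of 0.12 (-0.06 to 0.30) in Cth-/-.

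The lowest role ratios of the gate were those of mitotic kinases, passenger complex and checkpoint and of the anaphase ligase. The first had a ratio of its sum of -2.67 (-3.49 to -1.94). Aurkb, the kinase of the passenger complex, had 15, 22, 34 and 0 UMIs, and Birc5, its survivin subunit, 47, 60, 124 and 3 UMIs. A count of 0 in this gate allows up to 3 UMIs. The role group named for the anaphase ligase, Cdc20, Ube2c and Cdca3, had a ratio of -2.71 (-3.51 to -2.01) as a sum. The name is a label and does not make each gene a part of the ligase. Ube2c, the ligase's ubiquitin carrier, was at 5.08, 4.26, 9.67 and 1.13 CPM. The spindle and cytokinesis genes had a ratio of -1.12 (-1.38 to -0.86), with Stmn1, a microtubule destabiliser, at 24.8, 20.1, 35.2 and 23.4 CPM and Prc1, which bundles the central spindle, at 3.65, 2.33, 6.13 and 0.377 CPM.

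The S members of the progenitor gate went in both directions between the Cth-/- libraries. The 6 helicase subunits Mcm2 to Mcm7 summed to a ratio of 0.28 (0.07 to 0.49), where Mcm7 was at 8.995, 7.05, 8.58 and 15.3 CPM and Mcm6 at 13.2, 9.64, 10.3 and 13.8 CPM. Pcna was highest in Cth-/- cystine-free, at 38.6, 29.3, 35.8 and 54.1 CPM and a ratio of 0.58 (0.38 to 0.80). Pclaf, a Pcna-binding factor, was lowest there, at 7.48, 4.26, 7.48 and 1.13 CPM and a ratio of -1.99 (-4.20 to -1.56). Tk1, the thymidine kinase, had 31, 20, 51 and 1 UMIs. The nucleotide synthesis genes as a sum had a ratio of -0.44 (-0.64 to -0.25), with Dut at 43.4, 43.2, 41.8 and 31.3 CPM and Rrm1, the large reductase subunit, at 18.9, 16.02, 18.2 and 12.8 CPM. The helicase was not uniform, with Mcm4, Mcm6 and Mcm7 above 0 and Mcm2, Mcm3 and Mcm5 below, at ratios of -0.43, -0.27 and -0.57. Of the 16 S members 5 had a ratio above 0 and 11 below it, while their sums were nearly equal.

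**Figure D2:**
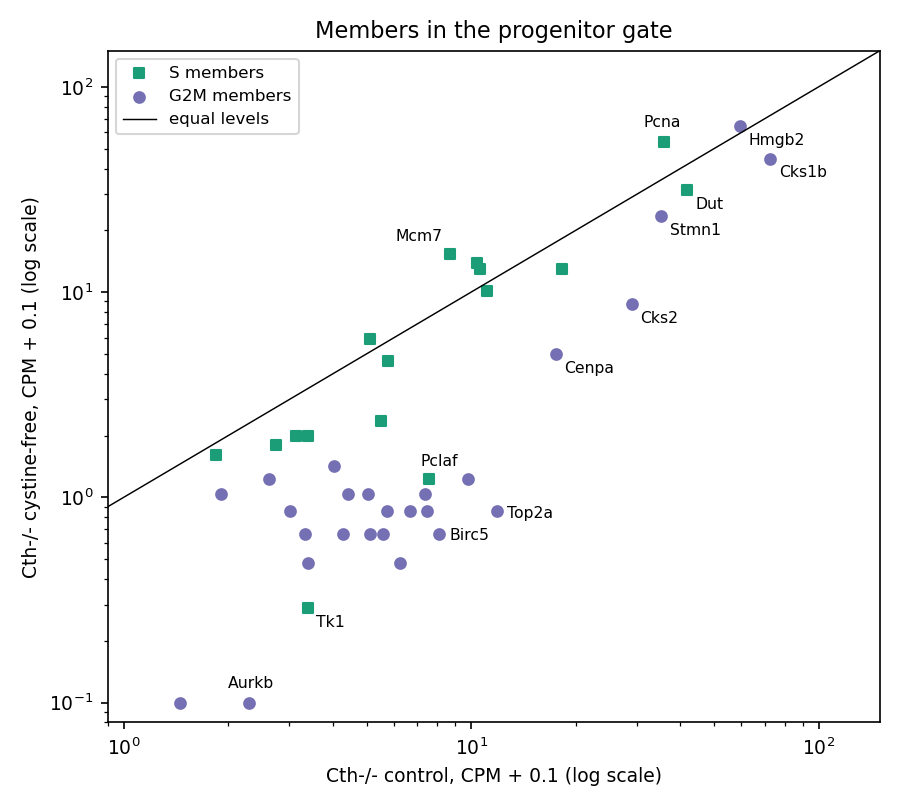
Each point is 1 of the 42 members in the progenitor gate, with its level in Cth-/- control (x) and Cth-/- cystine-free (y) in CPM plus 0.1 on log scales; squares are S members, circles G2M members and the line marks equal levels. Most circles lie far under the line, such as Top2a at 11.7 against 0.754 CPM, while Pcna, at 35.8 against 54.1 CPM, and Mcm7 lie above it.

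Only 6 S and 5 G2M members reached a mean of 10 CPM over the 4 libraries in the progenitor gate. With the diet in Cth-/-, 3 of these 5 G2M members were at least 1.5-fold lower, against 9.69% of 7926 genes with that mean; the median ratio of the 5 was -0.69 and that of the 7926 genes -0.01. No S member of the 6 was 1.5-fold apart in either direction, and 7.33% of the genes were that much higher; the median ratio of the 6 was 0.07. With no minimum on the level, 23 of 26 G2M members were at least 1.5-fold lower, against 8.84% of 19897 genes, and the median ratio was -1.64 over all 26 G2M members and -0.34 over all 16 S members. In Cth+/+ none of the 11 members was 1.5-fold apart, where 0.921% of genes were that much higher and 1.11% that much lower.

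The progenitor gate itself differed between the libraries. The 10 progenitor markers, all detected in every library, summed to 25730, 31783, 27436 and 9706 CPM, lowest in Cth-/- cystine-free; whether a gate on Dcn takes the same kind of barcode there was not tested. With the Dcn minimum doubled the G2M ratio in Cth-/- was -0.73. The 5 erythroid markers summed to 1253, 2289, 652 and 82.7 CPM with Alas2 at 0 in the last library. The phagocyte markers, all 10 detected, lay between 257 and 305 CPM. The part of these differences in the G2M ratio was not tested beyond the doubled minimum.

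Few progenitor barcodes carried the mitotic transcripts. Barcodes with at least 3 different genes of the 22 numbered 21 of 2954 (0.711%, Clopper-Pearson interval 0.441 to 1.08) in Cth+/+ control, 17 of 3023 (0.562%, 0.328 to 0.899) in Cth+/+ cystine-free, 37 of 3222 (1.15%, 0.810 to 1.58) in Cth-/- control and 2 of 1573 (0.127%, 0.0154 to 0.459) in Cth-/- cystine-free. The 37 barcodes of Cth-/- control held 52.1% of all G2M UMIs of the gate, and the 2 barcodes of Cth-/- cystine-free held 6.68%. A barcode with exactly 2 of the 22 genes, just under this limit, was seen 9, 15, 24 and 3 times. After each barcode was thinned to 1500 UMIs the shares were 0.547, 0.419, 0.973 and 0.146%, with 396, 159, 242 and 205 shallower barcodes left out. Barcodes with at least 3 S members made up 3.39, 4.07, 4.25 and 2.16% of the gate. Their thinned shares were 0.430, 0.419, 0.436 and 0.146%, so Cth-/- cystine-free was the lowest in S members by this count too. That last share is 2 of 1368 barcodes, and its interval of 0.0177 to 0.527% holds the shares of the other libraries.

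Endothelial cells, which line the vessels, showed the reverse picture in the mice with Cth: the Cth+/+ cystine-free library had the highest level of both modules. The G2M sum was 437 CPM in Cth+/+ control, 1031 CPM in Cth+/+ cystine-free, 285 CPM in Cth-/- control and 352 CPM in Cth-/- cystine-free, in 1246, 1221, 510 and 1015 barcodes. The S sum was 310.4, 511, 329 and 339 CPM. The other 3 libraries were close together in S, and Cth+/+ cystine-free stood apart. In Cth+/+ the ratio was 1.24 (1.16 to 1.32) for G2M and 0.72 (0.62 to 0.82) for S, and over the 22 G2M members 1.74 (1.60 to 1.88). In Cth-/- the G2M ratio was 0.30 (0.14 to 0.47), but it was 0.13 without the 5 barcodes richest in these UMIs of each library and -0.10 as a mean over barcodes.

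By role, the ratios in Cth+/+ ran from 0.58 (0.43 to 0.73) for fork and ligation factors to 1.90 (1.52 to 2.29) for the anaphase ligase. Top2a was at 15.3 CPM in Cth+/+ control, 59.1 CPM in Cth+/+ cystine-free, 7.08 CPM in Cth-/- control and 10.1 CPM in Cth-/- cystine-free, a ratio of 1.88 (1.55 to 2.36) in Cth+/+. Birc5 was at 9.97, 42.9, 4.25 and 8.83 CPM and Mki67 at 5.37, 25.9, 4.25 and 2.84 CPM. In all of these genes the Cth+/+ cystine-free library was the highest by a wide margin. Among S members, Pclaf was at 10.2, 43.9, 7.08 and 7.26 CPM, a ratio of 2.00 (1.62 to 2.62), and Tk1 at 4.86, 20.1, 0.708 and 3.47 CPM. Pcna did not share this pattern: it was at 89.5, 84.3, 140.1 and 143 CPM, with a ratio of -0.09 (-0.28 to 0.11) in Cth+/+ and higher levels in both Cth-/- libraries.

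Of the members with a mean of at least 10 CPM in the endothelial gate, 8 of 8 G2M and 6 of 11 S members were at least 1.5-fold higher with the diet in Cth+/+, against 1.85% of 8151 genes. The median ratios were 1.35 and 0.80, and that of the 8151 genes was -0.05. Without the minimum the counts were 25 of 26 and 11 of 16, against 4.68% of 18093 genes. With the diet in Cth-/-, 1 of 8 G2M and 3 of 11 S members were that much higher, against 4.66%, and 0 and 1 that much lower, against 7.85%. The 10 endothelial markers summed to 7843, 7850, 7016 and 7620 CPM, so the gate was alike in its own markers. The 10 mural markers, all detected, were at 751, 808, 638 and 426 CPM, and the 5 erythroid markers at 4177, 8096, 2196 and 542 CPM with Alas2 at 0 in Cth-/- control; their part in the ratios was not tested.

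Barcodes with at least 3 of the 22 G2M genes numbered 15 of 1246 (1.20%, 0.675 to 1.98) in Cth+/+ control, 89 of 1221 (7.29%, 5.89 to 8.89) in Cth+/+ cystine-free, 3 of 510 (0.588%, 0.121 to 1.71) in Cth-/- control and 1 of 1015 (0.0985%, 0.00249 to 0.548) in Cth-/- cystine-free. Of the 89 barcodes, 49 also passed the mural gate and 82 had at least 3 S members. They held 78.8% of the gate's G2M UMIs in that library. The single barcode of Cth-/- cystine-free had 45251 UMIs, far above the gate's median of 2404, and held 27.3% of the G2M UMIs there. Thinned to 1500 UMIs, the shares were 1.10, 4.03, 0.578 and 0.125%, with 333, 104, 164 and 217 barcodes left out. The order of the libraries was the same at this equal depth. The Cth-/- shares are then 2 of 346 (0.0701 to 2.07%) and 1 of 798 barcodes (0.00317 to 0.696%). These intervals overlap, so the order of the Cth-/- libraries rests on very few barcodes.

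**Figure D3:**
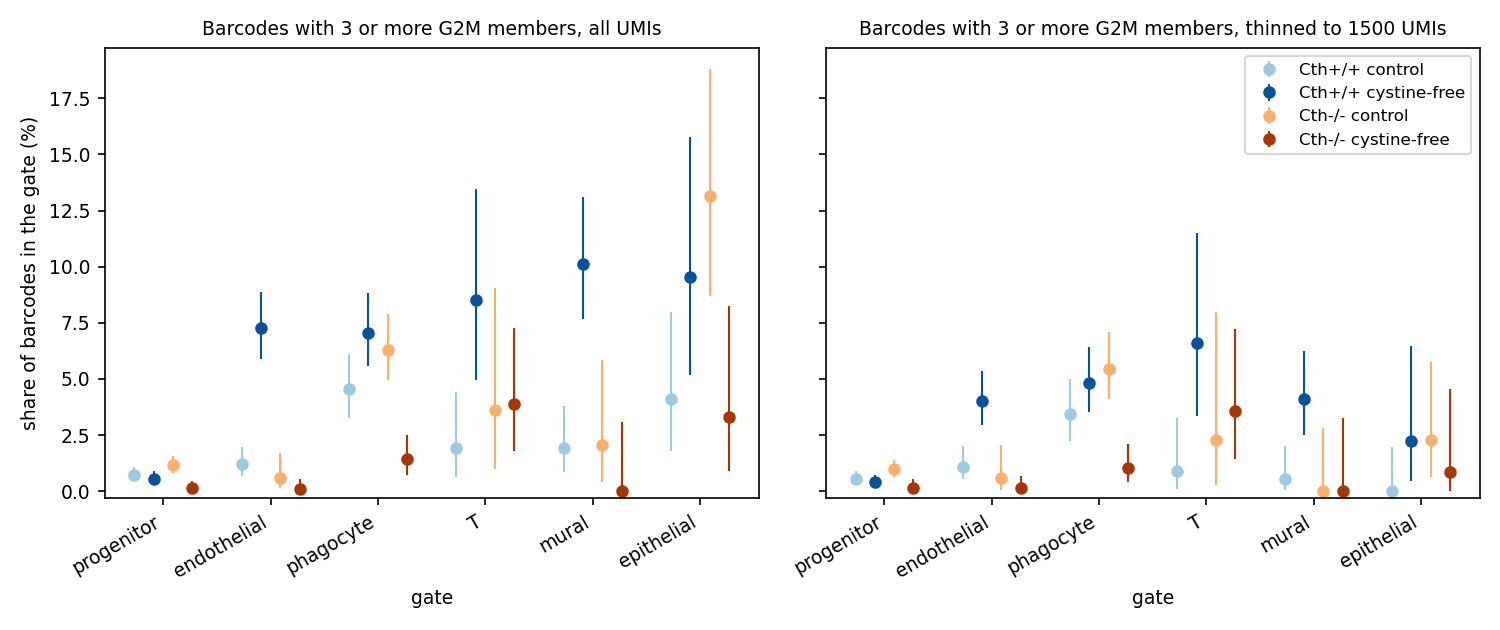
Share of barcodes of each gate that hold at least 3 different genes of the 22 G2M members, with all UMIs (left) and thinned to 1500 UMIs per barcode (right); points are the 4 libraries and lines are 95% Clopper-Pearson intervals. The endothelial share of Cth+/+ cystine-free, 7.29% unthinned and 4.03% thinned, stands above the other 3 libraries, and in the phagocyte gate Cth-/- cystine-free, 1.42% and 1.02%, is the lowest.

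Phagocytes, the macrophages, monocytes and dendritic cells of the tissue, had lower levels of S and G2M members alike in Cth-/- cystine-free. The G2M sum was 887 CPM in Cth+/+ control, 1239 CPM in Cth+/+ cystine-free, 1129 CPM in Cth-/- control and 533 CPM in Cth-/- cystine-free, in 882, 1019, 1127 and 776 barcodes. The S sum was 428, 434, 478 and 229.8 CPM. In Cth-/- the ratios of both sums were alike, at -1.08 (-1.17 to -0.997) for G2M and -1.06 (-1.19 to -0.92) for S. In Cth+/+ they were 0.48 (0.41 to 0.55) and 0.02 (-0.09 to 0.13).

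Every role was lower with the diet in Cth-/-, from -0.73 (-0.91 to -0.54) for fork and ligation factors to -1.77 (-2.21 to -1.36) for the anaphase ligase. Mcm5, a helicase subunit, was at 22.9 CPM in Cth+/+ control, 22.6 CPM in Cth+/+ cystine-free, 20.8 CPM in Cth-/- control and 4.91 CPM in Cth-/- cystine-free, a ratio of -1.88 (-3.05 to -1.22). Pclaf was at 43.2, 65.2, 58.1 and 9.83 CPM, a ratio of -2.45 (-3.21 to -1.98). Unlike in progenitors, the helicase and the fork factors were thus low together with mitotic genes. Cdk1 was at 15.9, 17.3, 17.4 and 2.27 CPM, a ratio of -2.49 (-4.44 to -1.74), and Top2a at 43.9, 67.5, 62.3 and 16.2 CPM. Pcna, at 109, 91.6, 111 and 94.9 CPM, and Cenpa, at 51.6, 69.7, 77.6 and 65.8 CPM, were nearer to each other, with ratios in Cth-/- of -0.22 (-0.45 to 0.00) and -0.24 (-0.52 to 0.04).

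Of the phagocyte members with a mean of at least 10 CPM, 16 of 18 G2M and 9 of 11 S members were at least 1.5-fold lower with the diet in Cth-/-, against 7.12% of 7388 genes. Their median ratios were -1.55 and -1.17, and that of the 7388 genes was -0.04. With no minimum they were 23 of 26 and 12 of 16, against 12.4% of 17560 genes. In Cth+/+, 7 of 18 G2M members and no S member were at least 1.5-fold higher, against 2.21%, and with no minimum 12 of 26 G2M members, against 7.37%. The phagocyte markers summed to 15289, 16334, 14434 and 14798 CPM. Progenitor markers summed to 1748, 1828, 2152 and 479 CPM in this gate, all 10 detected in every library, and erythroid markers to 877, 5119, 469 and 396 CPM; their part was not tested.

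Phagocyte barcodes with at least 3 of the 22 G2M genes were 40 of 882 (4.54%, 3.26 to 6.12), 72 of 1019 (7.07%, 5.57 to 8.82), 71 of 1127 (6.30%, 4.95 to 7.88) and 11 of 776 (1.42%, 0.710 to 2.52). The thinned shares were 3.42, 4.83, 5.45 and 1.02%, with 151, 108, 155 and 88 barcodes left out. Cth-/- cystine-free was the lowest at both depths. In the order of the 2 higher libraries the unthinned and thinned shares differed.

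**Figure D4:**
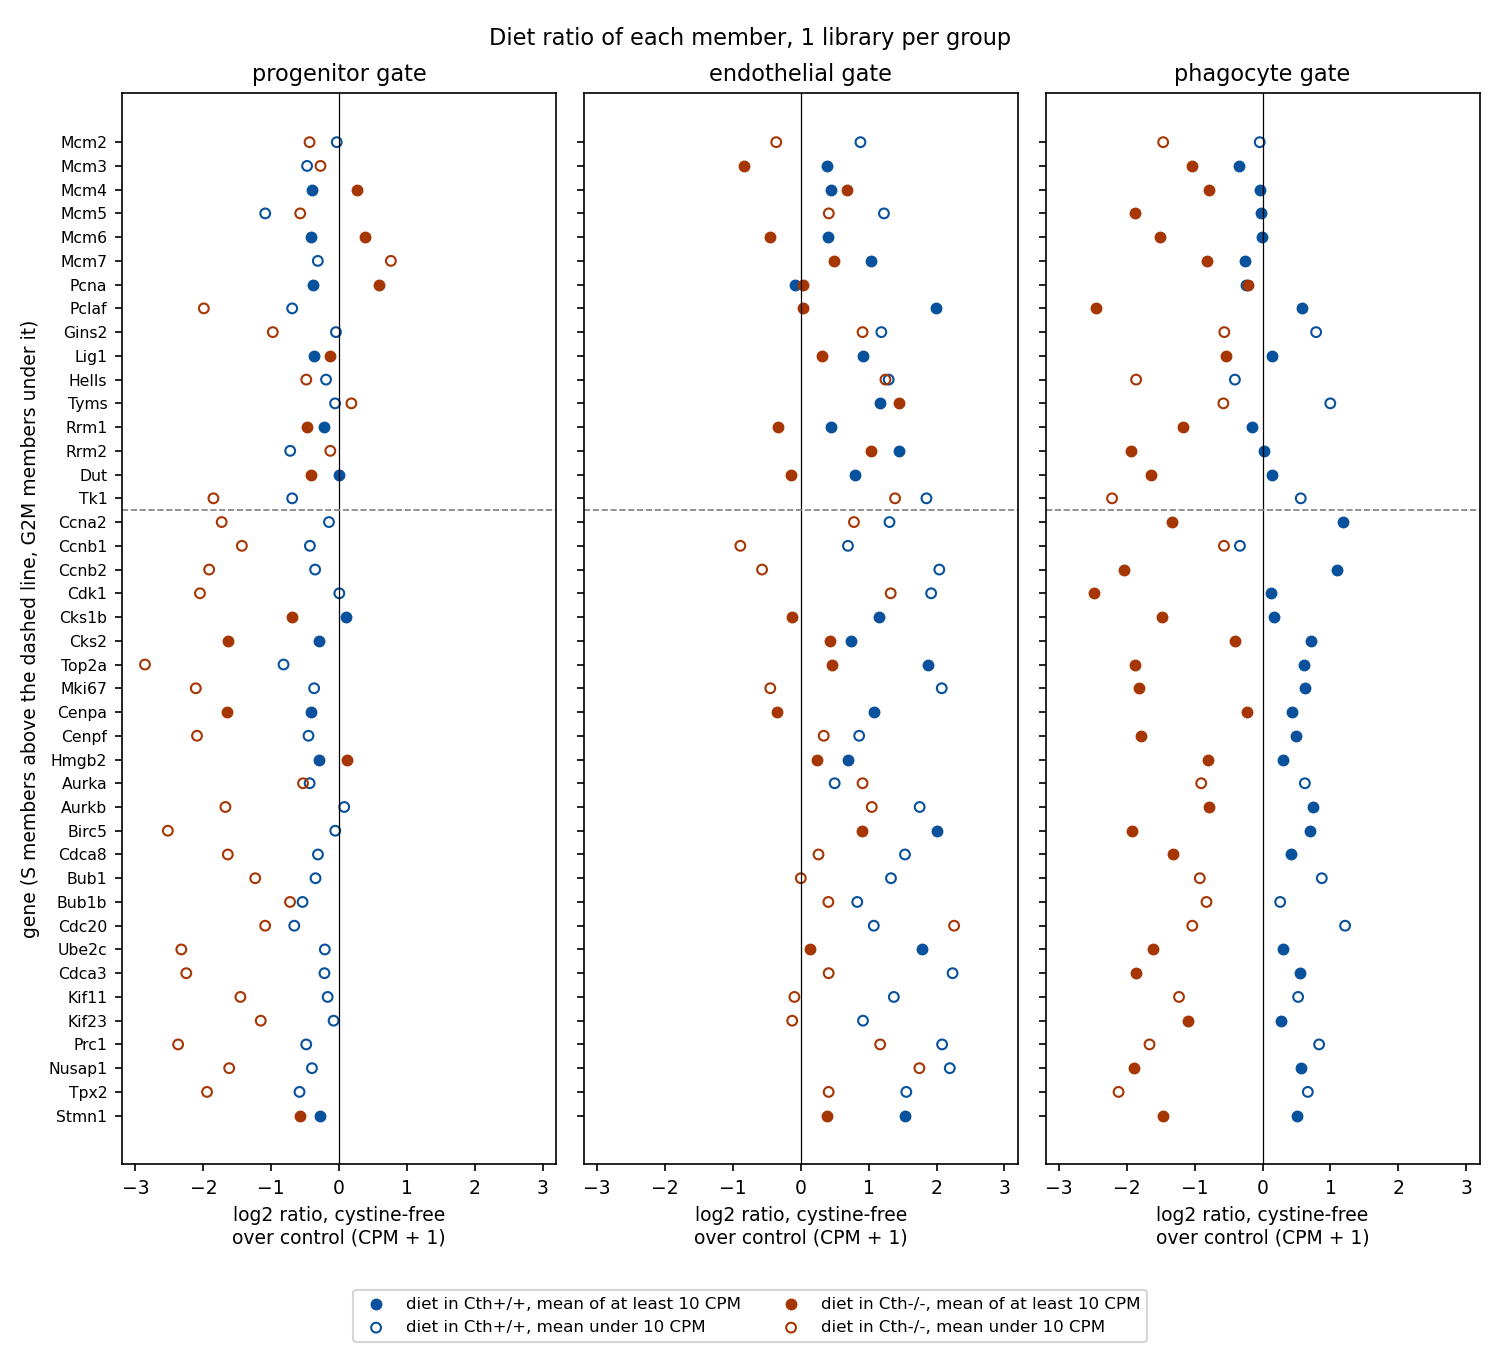
Log2 ratio of cystine-free over control diet (CPM plus 1) of each of the 42 members in the progenitor, endothelial and phagocyte gates, in Cth+/+ (blue) and Cth-/- (red); filled points have a mean of at least 10 CPM over the 4 libraries and open points less, and the dashed line parts S from G2M members. In the progenitor gate the red G2M points reach -2.86 for Top2a while Pcna lies at 0.58, and in the phagocyte gate red points lie under 0 in both modules.

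The smaller gates rest on few barcodes. In the T gate, with 261, 188, 110 and 231 barcodes, the G2M sum was 696 CPM in Cth+/+ control, 2001 CPM in Cth+/+ cystine-free, 1533 CPM in Cth-/- control and 1063 CPM in Cth-/- cystine-free. The ratio was 1.52 (1.37 to 1.68) in Cth+/+ and -0.53 (-0.71 to -0.35) in Cth-/-, and over the 22 members the latter was 0.16 (-0.20 to 0.53). In Cth+/+, 19 of 19 G2M members with the mean of 10 CPM were at least 1.5-fold higher, but 15.4% of 7193 genes were as well. The 5 richest T barcodes of a library held 37.5 to 57.8% of its G2M UMIs. The 10 T markers summed to 2572, 2620, 2393 and 2743 CPM. The 5 NK markers, all detected, summed to 542, 1306, 1391 and 784 CPM. Like the G2M sum they were lowest in Cth+/+ control, but they were highest in Cth-/- control and the G2M sum in Cth+/+ cystine-free. The 5 erythroid markers summed to 642, 5507, 127 and 57.4 CPM, with Alas2 at 0 except in Cth+/+ cystine-free. The part of the NK and erythroid markers was not tested.

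The mural gate shares most of its barcodes with the endothelial gate, yet their pooled G2M ratios in Cth-/- had opposite signs, which rested on few barcodes. Its G2M sum was 329, 1043, 329 and 237 CPM. The ratio in Cth-/- was -0.47 (-0.74 to -0.21), and over the 22 members -1.70 (-2.41 to -1.06), where the endothelial gate had 0.30 and 0.39. Of the UMIs of the 22 members, 1 endothelial barcode of Cth-/- cystine-free held 166 of 273. In the mural gate 5 barcodes of Cth-/- control held 92 of 113. Without the 5 richest barcodes per library the ratio of the sum of all 26 G2M members was positive in both gates. The sum of the 22 members was not recomputed in this way, so its sign without those barcodes is not given. In Cth+/+ 9 of 9 G2M members with the mean of 10 CPM were at least 1.5-fold higher, against 4.01% of 8478 genes. In Cth-/- cystine-free 0 of its 117 barcodes held 3 of the 22 genes, which allows a share of up to 2.56% by a floor of 3 barcodes and 3.10% by the Clopper-Pearson interval. Epithelial barcodes, from mammary ducts or skin by their keratins, numbered 194, 136, 190 and 121 and had a G2M sum of 293, 524, 696 and 273 CPM. With the diet in Cth-/-, 9 of 9 G2M members were at least 1.5-fold lower there, against 8.12% of 7718 genes, and Birc5 was at 4.78, 3.69, 26.4 and 1.68 CPM. The 5 richest epithelial barcodes of a library held 35.4 to 41.2% of its G2M UMIs, and 1 barcode of Cth-/- control held 388 of 1737. Barcodes of no gate had a G2M sum of 1146, 836, 1104 and 462 CPM. Their 5 B cell markers summed to 2227, 6448, 1683 and 14246 CPM and were highest where the G2M sum was lowest, and their 5 erythroid markers to 5043, 8766, 4015 and 652 CPM with Alas2 at 0 in the last; their part was not tested.

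Over all barcodes, those with at least 3 of the 22 G2M genes were 1.88% (1.56 to 2.25) in Cth+/+ control, 3.45% (3.02 to 3.93) in Cth+/+ cystine-free, 2.82% (2.41 to 3.29) in Cth-/- control and 0.733% (0.495 to 1.05) in Cth-/- cystine-free. Thinned to 1500 UMIs the shares were 1.39, 2.14, 2.03 and 0.574%, with 1369, 683, 892 and 778 barcodes left out. No gate here is sure to lack these genes and so to measure free RNA; the lowest share in a gate of over 1000 barcodes was 0.0985%, in endothelial barcodes of Cth-/- cystine-free at a median of 2404 UMIs. Barcodes with at least 3 S members were 5.33, 8.21, 6.28 and 4.18% before thinning and 1.76, 2.43, 1.61 and 0.694% after it. These S shares fell more on thinning than the G2M shares did. The 2 rules are not alike, since the S rule kept all 16 members, Dut and Pcna among them. The G2M rule left out the 4 broadly expressed members, and the part of this choice was not tested.

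On the control diet the genotypes can be set side by side in the same values, which share their libraries with the diet ratios. The 22 G2M members were higher in Cth-/- control than in Cth+/+ control in progenitors, with a log2 ratio of 0.73 (0.61 to 0.85), and lower in endothelial barcodes, with -0.98 (-1.32 to -0.66). In phagocytes the log2 ratio was 0.56 (0.44 to 0.68). These ratios rest in part on few barcodes. The 5 richest progenitor barcodes held 441 of 846 of these UMIs in Cth+/+ control and 606 of 1939 in Cth-/- control. The 5 richest endothelial barcodes held 234 of 509 and 44 of 93, and the 5 richest phagocyte barcodes 251 of 898 and 317 of 1882. The genotype ratios were not recomputed under other settings.

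Other genes of the cell cycle were read from lists of 35 further replication genes, 54 further mitotic genes, 17 G1 cyclins, kinases and E2F factors, and 28 brakes. In progenitors with the diet in Cth-/-, 6 of 22 brakes with a mean of 10 CPM were at least 1.5-fold higher and 3 lower, against the 7.33% and 9.69% given above. Cdkn1a, the p21 inhibitor of cyclin-dependent kinases, was at 188 CPM in Cth+/+ control, 154 CPM in Cth+/+ cystine-free, 183 CPM in Cth-/- control and 514 CPM in Cth-/- cystine-free. Foxo1, a factor of resting cells, went from 42.4 to 75.2 CPM between the Cth-/- libraries and the inhibitor Cdkn1b from 26.8 to 47.9 CPM. Not all brakes were higher: Cdkn1c, the p57 inhibitor, was at 529 CPM in Cth-/- control and 123 CPM in Cth-/- cystine-free, Gadd45b at 454 and 267 CPM and Gas1 at 373 and 233 CPM. Myc, which promotes growth, was the 1 of 7 G1 genes at least 1.5-fold higher, at 144 and 237 CPM. Of 7 further mitotic genes with that mean, 1 was at least 1.5-fold lower, Smc2, a condensin subunit, at 14.1 and 8.29 CPM, and none of 6 replication genes was either higher or lower. Those 7 do not stand for their list: over all 54 further mitotic genes, 48 had a ratio below 0 and the median was -0.85, and over all 35 replication genes 24 were below 0 with a median of -0.19.

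In endothelial barcodes with the diet in Cth+/+, 4 of 7 further mitotic and 2 of 9 further replication genes were at least 1.5-fold higher, against 1.85% of all genes, and none lower, against 3.09%. H2afx, a histone variant, was at 23.0 and 49.4 CPM, Smc2 at 20.5 and 40.6 CPM, and Gmnn, the inhibitor of repeated licensing, at 14.3 and 25.9 CPM. Of 9 G1 genes the 1 that was higher, against the same 1.85%, was Ccnd1, a D-type cyclin, at 151 and 289.8 CPM, while in Cth-/- it was at 62.3 and 34.1 CPM. None of 23 brakes was 1.5-fold apart, with Cdkn1a at 719 and 554 CPM. In phagocytes with the diet in Cth-/-, 10 of 13 further mitotic and 5 of 11 further replication genes were at least 1.5-fold lower, against 7.12% of all genes, and none higher, against 4.29%. Spc24, of the kinetochore, was at 13.8 and 3.02 CPM and Asf1b, a histone chaperone, at 11.4 and 3.02 CPM. Of 9 G1 genes 2 were lower and none higher, with Ccnd1 at 94.2 and 34.0 CPM. Of 22 brakes 2 were higher and 5 lower, with a median ratio of 0.06, and Gas1 was at 34.0 and 7.94 CPM where the progenitor markers of the gate were at 2152 and 479 CPM.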

How the data were processed

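Droplet-based 3' RNA sequencing (10x Genomics) of 4 libraries of stromal vascular cells was used, 1 per group. The authors deposited raw counts of UMIs for each gene in each barcode, made with Cell Ranger 3.0.0, per the file headers, on mm10, per the submitters' processing notes. The libraries held 7175, 7312, 6353 and 4394 barcodes. Barcodes were kept with at least 300 genes, 500 UMIs and at most 10% mitochondrial UMIs, and 100, 99, 139 and 40 Scrublet doublets (scanpy 1.11.5, expected 0.8% per 1000 barcodes) were removed. Gates followed UMIs: Dcn at least 0.2% of the total, Cdh5, Pecam1 and Cldn5 at least 3, Csf1r, Cd68 and Lyz2 at least 4, Cd3d, Cd3e and Cd3g at least 2, Rgs5 and Notch3 at least 4, and Krt8 and Krt18 at least 5. A barcode could pass several gates.

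UMIs were summed per gate and divided by its total. Single-gene ratios use a pseudocount of 1 CPM. Intervals are exact Poisson, Clopper-Pearson or, for ratios, exact binomial, at 95%. A count of 0 was kept as 0 and read as allowing up to 3 UMIs or barcodes. No test was run, since each group has 1 library; members 1.5-fold apart were counted as a size. On simulated counts 95.4 to 95.5% of true ratios lay inside their interval in the 3 largest gates. Those counts were independent Poisson draws, as the intervals assume, so this checks the computation only. It could not show whether the intervals hold where UMIs clump in few barcodes, as the G2M UMIs do here. The members and lists were chosen with earlier results of these data known. All 42 members could be named, and of the other lists the 3 highest and 3 lowest ratios per gate with a mean of at least 10 CPM; not all of them are printed, and the counterpart values of a named gene in another diet ratio may be given beside it. Alternatives covered the barcode filters, doublets, gates, pooling, broad members, rich barcodes, size factors, pseudocount, expression minimum and barcode rule. Python 3.11.15, numpy 2.4.6, scipy 1.17.1 and pandas 2.3.3 were used.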

Additional observations from a re-analysis of the deposited data

Results flagged for a closer look

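In these sums the diet ratio had opposite signs in the Cth+/+ and Cth-/- libraries; the difference between them rests on 1 library per group and was not tested. The values are the log2 ratio in Cth-/- minus that in Cth+/+. For the G2M members it was -1.57 in phagocytes, -2.05 in the T gate, -2.14 in the mural gate, -2.19 in the epithelial gate and -1.13 in whole libraries. For the S members it was -1.18 in the epithelial gate and -0.25 in whole libraries. The T gate value rests on Hmgb2, Stmn1, Cks1b and Cks2 for its sign in Cth-/-, and the mural one on 5 barcodes per library. In the epithelial gate the 5 richest barcodes of Cth-/- control held 41.2% of its G2M UMIs, and 5 held 38.5% of its S UMIs.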

How the results depend on the processing

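No paired analysis was possible because each group has 1 library. Of 160 recomputed values of the 28 main results, 123 stayed within their limit, 35 moved further and 2 changed sign. Of 584 other values, 517 stayed within it, 65 moved further and 2 changed sign. The limit was the counting interval of the main value or, for the 6 counts of members, 1.5-fold. A change of sign was counted only where the main interval excluded 0. The causes of these moves were not tested. Averaging barcodes instead of pooling UMIs turned the G2M ratio to 0.041 in progenitors (Cth+/+) and to -0.10 in endothelial barcodes (Cth-/-). It gave S ratios of -0.15 in progenitors and 0.41 in endothelial barcodes (Cth+/+) and -0.74 in phagocytes (Cth-/-), and G2M ratios of -0.65 in progenitors and -0.76 in phagocytes (Cth-/-) and 0.997 in endothelial barcodes (Cth+/+). Barcodes of exactly 1 gate gave G2M ratios of -1.10 in progenitors and 0.60 in endothelial barcodes (Cth-/-), and 1.37 for G2M and 0.58 for S in endothelial barcodes (Cth+/+). Doubled gate minimums gave progenitor G2M ratios of -0.032 (Cth+/+) and -0.73 (Cth-/-).

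Without Dut and Pcna the S ratios were -0.42 (Cth+/+) and -0.17 (Cth-/-) in progenitors, 0.97 in endothelial barcodes (Cth+/+) and -1.41 in phagocytes (Cth-/-). Without the 4 broadly expressed members the G2M ratios were -0.49 and -2.67 in progenitors (Cth+/+, Cth-/-), 1.74 in endothelial barcodes (Cth+/+), 0.56 and -1.40 in phagocytes, and 0.16 in the T gate (Cth-/-), where the sign changed. Without the 5 richest barcodes per library the ratios of all 26 G2M members were -0.10 and -0.84 in progenitors. They were 1.55 and 0.13 in endothelial barcodes, -1.29 in phagocytes (Cth-/-) and, with a change of sign, 0.18 in the mural gate (Cth-/-).

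With no expression minimum, 11 S and 25 G2M members were higher in endothelial barcodes and 12 G2M members in phagocytes (Cth+/+), and 23 G2M members were lower in progenitors (Cth-/-); with a pseudocount of 5 CPM, 4 G2M members were higher in phagocytes (Cth+/+). For shares of barcodes with the diet in Cth-/-, 2 members in place of 3 gave log2 ratios of -0.21 for S and -1.27 for G2M in whole libraries and -1.17 for G2M in phagocytes, and thinning gave -1.21 for S in whole libraries. Depth limits single members: in progenitors of Cth-/- cystine-free many G2M members rest on fewer than 10 UMIs.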
